A study of Mus musculus with 3 samples.

Results

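Ribosome biogenesis supplies a growing cell with the machines that make protein. RNA polymerase I copies the ribosomal RNA precursor in the nucleolus, small nucleolar ribonucleoproteins (snoRNPs) modify it, and assembly factors fold and cut it while ribosomal proteins are added. Growth signals raise the transcripts of this machinery through factors such as MYC, and cells that leave quiescence need new ribosomes to gain mass before they divide. Adult mouse Müller glia, the radial glia of the retina, are normally quiescent.

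The transcripts of 36 such genes were described here, a set chosen by name with earlier results of these data known. All 36 had a row among the 18478 genes of the deposited count table, and all 36 passed the filter on low counts. The set holds Myc, 2 further regulators (Nolc1, Mybbp1a), the nucleolar chaperones Npm1 and Ncl, 4 proteins of box C/D snoRNPs, 4 of box H/ACA snoRNPs, 3 subunits of RNA polymerase I, 10 genes placed with the small subunit and 10 with the large subunit. The question was whether these growth genes were higher in cells that expressed Igfbp2 but held no transcripts of 4 cell cycle genes.

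All cells came from adult mouse retina and all belonged to 1 group of 3 libraries (runs 1, 2 and 3), so no unmodified, uninjured or untreated control entered any comparison. The mice carried 3 alleles: Glast-CreERT2+/tg, in which the promoter of the glutamate transporter GLAST drives an inducible recombinase, Yap5SA+/tg, a YAP form with serines replaced by alanine so that Hippo kinases cannot restrain it, and the reporter R26R-tdTomato+/tg. Tamoxifen started recombination, N-methyl-D-aspartate (NMDA) injured the retina, and 2 days later tdTomato+ cells were sorted for 10X Genomics 3' single-cell libraries. GLAST is also made by retinal astrocytes, so the sort does not hold Müller glia only. Nothing in the labels says whether the runs came from separate animals. The tests used the run as a block, which takes out differences in level between runs. The p-values therefore measure how far differences between the cell classes defined below varied from run to run. That spread may be technical.

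Cells were placed in 4 classes within each run. Igfbp2-high cells had at least 5 Igfbp2 unique molecular identifiers (UMIs, counted molecules) per 10000 UMIs of the cell and Igfbp2-low cells had under 1. Cycling cells had at least 2 UMIs of Top2a, Mki67, Cdk1 and Ccnb1 together and non-cycling cells had 0. The classes held 13045 Igfbp2-low non-cycling, 1126 Igfbp2-high non-cycling, 286 Igfbp2-low cycling and 4961 Igfbp2-high cycling cells, and 5254 of the 24672 kept cells were in none. At the Igfbp2 limit, 163 cells lay just inside (5 to 6 per 10000) and 173 just outside (4 to 5).

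Depth and cell make-up differed between these classes. The runs held 94858762, 122888236 and 97032672 UMIs. Median UMIs per cell were 8454 to 10222 in the Igfbp2-low non-cycling class, 13579 to 15364 in the Igfbp2-high non-cycling class, 11767 to 14594 in the Igfbp2-low cycling class and 20986 to 23816 in the Igfbp2-high cycling class. The 15 Müller glia markers summed to 34730 to 41470 CPM (UMIs scaled to a total of 1000000) in the Igfbp2-low non-cycling class and to 17970 to 20970 in the Igfbp2-high non-cycling class. Markers of other cells moved as well. The 5 astrocyte markers summed to 811 to 1166 CPM in the first and 1229 to 1384 CPM in the second, where 2 rose and 2 fell, and Pax2, a transcription factor of retinal astrocytes, averaged 0.083 against 21.6 CPM and was at 0 in every run of the Igfbp2-low cycling class. The 4 pericyte markers summed to 22.2 to 50.9 against 311 to 404 CPM, and the 3 that could be tested rose. The 10 rod markers all fell (summed level 1828 to 2111 against 754 to 1066 CPM). In the small Igfbp2-low cycling class, 10 microglia markers summed to 5242, 1589 and 281 CPM in runs 1, 2 and 3, against 3.61 to 73.4 CPM in the other classes. Malat1, a nuclear long non-coding RNA, stood at 40650 to 45080 CPM in the Igfbp2-low non-cycling, 26080 to 30950 CPM in the Igfbp2-high non-cycling, 20900 to 28080 CPM in the Igfbp2-low cycling and 13760 to 16510 CPM in the Igfbp2-high cycling class. Mitochondrial UMIs made up 4.94% to 5.94% of the Igfbp2-low non-cycling, 4.17% to 4.81% of the Igfbp2-high non-cycling and 2.98% to 3.40% of the Igfbp2-high cycling class. The part of the Müller, rod, Malat1 and mitochondrial differences in the results was not tested. Pairs of runs shared 83 to 108 cell barcodes.

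The 36 genes together were higher in Igfbp2-high cells that held no UMI of the 4 cycle genes. Their summed level in Igfbp2-low non-cycling cells was 1695, 1817 and 1565 CPM in runs 1, 2 and 3. In Igfbp2-high non-cycling cells it was 3043, 3093 and 2750 CPM, so every run of this class lay above every run of the other, 1.75-fold ± 0.047 higher within runs (SD, n = 3). Igfbp2-high cycling cells held 4493 ± 268 CPM, a further 1.52-fold ± 0.059, and Igfbp2-low cycling cells 2971 ± 125 CPM. Per cell, that is 16.4 ± 2.7, 43.8 ± 5.5, 45.2 ± 2.6 and 100.3 ± 11.1 UMIs in the Igfbp2-low non-cycling, Igfbp2-high non-cycling, Igfbp2-low cycling and Igfbp2-high cycling classes. CPM corrects for the different numbers of UMIs per cell, and UMIs per cell do not. Without Npm1 and Ncl, the other 34 genes rose by the same kind of step, 1.67-fold ± 0.063 and then 1.40-fold ± 0.056.

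**Figure D1:**
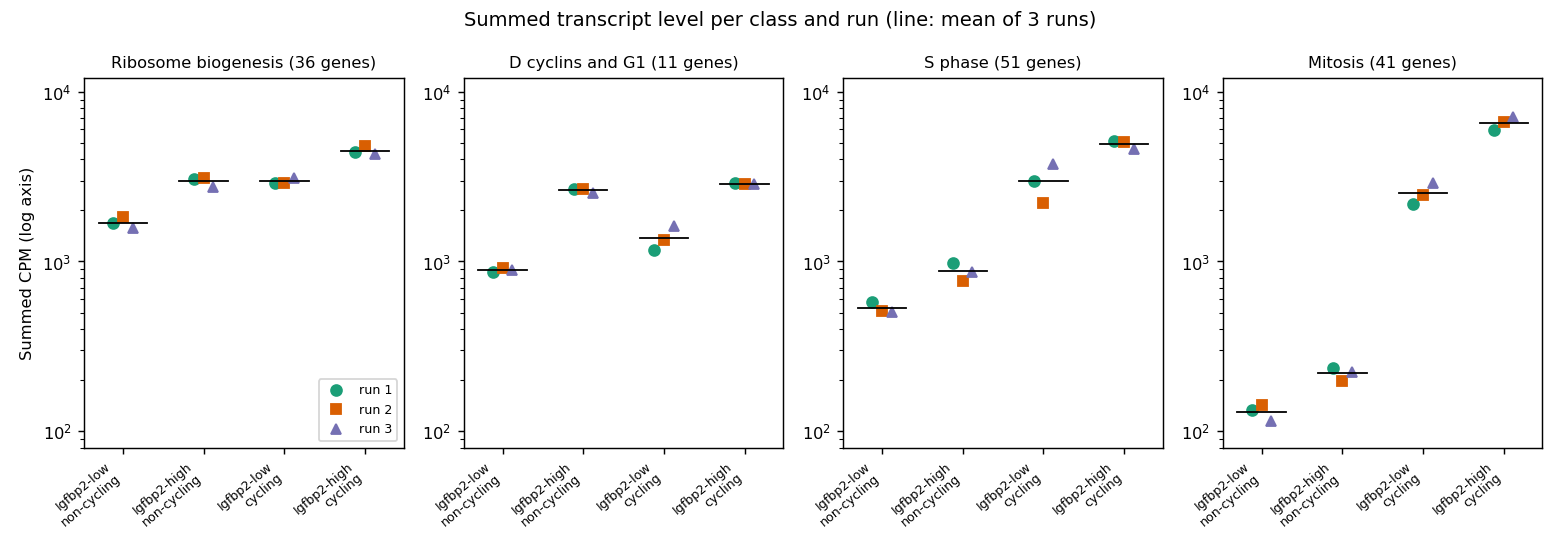
Summed transcript level (CPM, log axis) of the 36 ribosome biogenesis genes, 11 D cyclin and G1 genes, 51 S phase genes and 41 mitosis genes in the 4 classes; each symbol is 1 run and the line is the mean of 3 runs. The ribosome biogenesis genes rise in both steps from Igfbp2-low non-cycling to Igfbp2-high non-cycling to Igfbp2-high cycling cells, the summed level of the D cyclin and G1 genes mainly in the first, and the S phase and mitosis genes mainly in the second. The place of the S phase and mitosis lists is partly set by the class rule, which uses 4 cycle genes.

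Of the whole log2 change from Igfbp2-low non-cycling to Igfbp2-high cycling cells, 57.4% ± 3.3 (SD, n = 3; 54.9% to 61.2%) was present in Igfbp2-high cells without cycle UMIs. That share was 92.8% ± 2.2 for the summed level of 11 D cyclin and G1 genes, which act before DNA replication, and 67.3% ± 2.4 for that of 27 genes of nucleotide and polyamine synthesis. Sums follow the most abundant genes. Gene by gene, 7 of the 11 rose in the first step and 4 fell, each by at least 1.5-fold: the cyclin-dependent kinase inhibitors Cdkn1a (-0.82) and Cdkn1b (-1.26) and the retinoblastoma family genes Rb1 (-1.13) and Rbl2 (-1.24), which hold cells out of S phase. In the contrast of the 2 steps, 5 of the 11 had the higher first step and 6 the higher second (median -0.46). For the 27 nucleotide and polyamine genes these counts were 6 and 7 (median -0.25), and a large part of the rise of their sum, from 1379 to 2422 CPM, was the single gene Odc1, which went from 118 to 713 CPM. The share of the first step was 22.2% ± 4.1 for 51 S phase genes and 13.3% ± 4.0 for 41 mitosis genes. The low shares of the cycle lists are partly set by the rule, because non-cycling cells were chosen for 0 UMIs of 4 cycle genes. The cells were taken at 1 time, so these shares order classes of cells and give no order in time.

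S phase transcripts were also higher in the Igfbp2-high non-cycling class. They summed to 874 ± 111 CPM against 532 ± 39.8 CPM, and 38 of the 51 genes rose. The ribosome biogenesis genes were therefore compared at equal S phase UMIs, after every cell was thinned at random to 3500 UMIs for the binning. Among non-cycling cells with 0 S phase UMIs in the thinned sample, the full counts of the 36 genes came to 2353, 2921 and 2253 CPM in Igfbp2-high cells (49 to 64 cells per run) and to 1585, 1775 and 1523 CPM in Igfbp2-low cells (548 to 825 cells per run). The 2 sets of values did not overlap. The fold within runs was 1.54 ± 0.095 (SD, n = 3), while S phase transcripts stood at 314 ± 10.6 against 317 ± 31 CPM and mitosis transcripts at 129 ± 28.4 against 124 ± 16.8 CPM. With more S phase UMIs the fold was 1.62 ± 0.05 (1 UMI), 1.65 ± 0.033 (2 to 3 UMIs) and 2.00 ± 0.12 (4 or more UMIs). In the last bin S phase transcripts were no longer matched, at 2044 against 918 CPM.

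**Figure D2:**
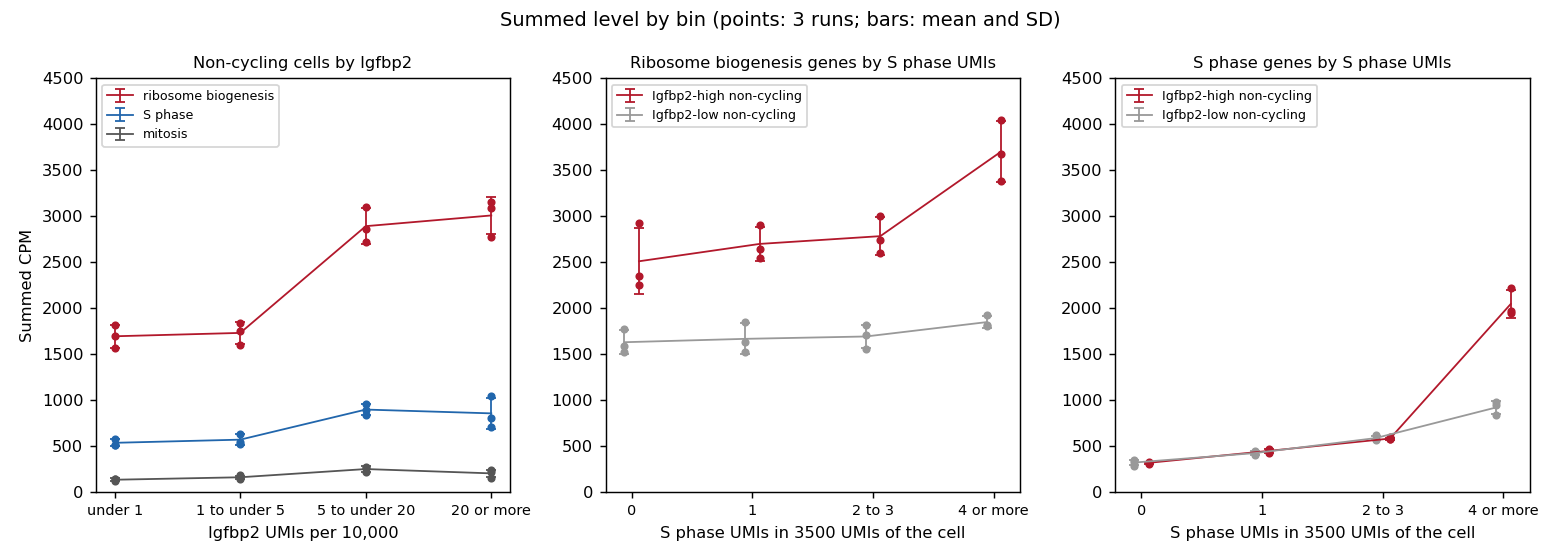
Summed level (CPM, y axis) of gene lists in bins of cells, with 1 point per run and bars for the mean and SD of 3 runs. Left, non-cycling cells by Igfbp2 UMIs per 10000, where ribosome biogenesis genes step up between the bins 1 to under 5 and 5 to under 20; middle and right, ribosome biogenesis and S phase genes by S phase UMIs of the thinned cell, where the Igfbp2-high cells lie above the Igfbp2-low cells for the first list also in the bins where the second list is level.

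The summed level did not climb evenly with Igfbp2. Among non-cycling cells it was 1692 ± 126 CPM with under 1 Igfbp2 UMI per 10000, 1729 ± 120 CPM with 1 to under 5 (2390 cells), 2891 ± 193 CPM with 5 to under 20 (487 cells) and 3008 ± 203 CPM with 20 or more (639 cells). In these full counts the neighbouring lower bins, and the neighbouring upper bins, differed by less than the SD between runs. In cells thinned to 3500 UMIs the 4 bins held 1661 ± 108, 1820 ± 128, 3110 ± 164 and 3456 ± 259 CPM. There both neighbouring pairs differed by more than the SD, with the widest gap again in the middle. The upper thinned bins also held dividing cells. Mitosis transcripts stood at 141, 242, 1082 and 1063 CPM and S phase transcripts at 551, 686, 1816 and 2048 CPM. In the full counts mitosis transcripts stood at 130, 157, 247 and 199 CPM. The part of dividing cells in the thinned values was not tested. The SD does not use the pairing of bins within a run. Among Igfbp2-high cells the summed level of the members in full counts was 2962 ± 185, 3272 ± 191, 4215 ± 162 and 4517 ± 274 CPM with 0, 1, 2 to 4 and 5 or more cycle UMIs. Mitosis transcripts in the same cells went from 219 ± 18.5 to 6958 ± 505 CPM, which is partly set by the bins, because they count 4 cycle genes.

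Gene by gene, 32 of the 36 rose in Igfbp2-high over Igfbp2-low non-cycling cells, none fell, and 4 did not pass the test (edgeR quasi-likelihood test with the run as a block, adjusted p under 0.05 over 14303 genes). Of all genes tested, 27.8% rose and 29.6% fell by the same rule, so many genes separate these classes. The median change of the 36 was 0.73 on the log2 scale, beside -0.05 for all genes. At least 1.5-fold rises numbered 23 of 36, beside 17.2% of all genes. Restricting the non-cycling cells to those with 0 S phase UMIs in the thinned sample left 171 Igfbp2-high cells, and 15 of the 35 genes that could be tested rose, with a median of 0.47, beside 17.3% of all genes. Without cells holding any UMI of the astrocyte and pericyte genes Pax2, S100b and Rgs5 or of the microglial C1q genes, 31 of 36 rose, with a median of 0.82. Of all genes, 29.4% rose there. In cells of 8000 to 16000 UMIs, where depth was closer between classes, 25 of 35 rose, beside 24.3% of all genes. Thinning to 3500 UMIs before the classes were set gave 27 of 35, beside 27.3% of all genes. It also placed dividing cells in the Igfbp2-high non-cycling class. Mitosis transcripts then stood there at 1076 and S phase transcripts at 1955 CPM, against 219 and 874 CPM in the full counts. Leaving out each run in turn kept 27 of the 32 calls; those of Wdr75, Wdr12, Utp14a, Polr1a and Polr1b were lost in at least 1 of these fits.

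The nucleolar chaperones rose in both steps. Npm1 (chr11:33152287-33163206, GRCm38), a histone chaperone that shuttles pre-ribosomes, was at 380, 438 and 363 CPM in Igfbp2-low non-cycling cells, at 809, 877 and 735 CPM in Igfbp2-high non-cycling cells and at 1343, 1501 and 1320 CPM in Igfbp2-high cycling cells. These 3 classes did not overlap. The log2 changes were 1.08 ± 0.08 (SE) for the first step (edgeR adjusted p = 1.02e-07) and 0.78 ± 0.08 for the second (edgeR adjusted p = 3.47e-06). Npm1 has many processed pseudogenes, and how reads shared with them were counted is not given in the sources used here. Ncl (chr1:86344719-86359400), nucleolin, which binds the nascent ribosomal RNA, averaged 231 ± 30.3, 374 ± 62.7 and 608 ± 77.5 CPM in the same classes. It changed by 0.73 ± 0.06 and then by 0.71 ± 0.06.

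The box C/D snoRNPs place methyl groups on ribosomal RNA, and all 4 of their genes rose in the first step. Nop58 (chr1:59684971-59719044), a core scaffold of the particle, had the highest first-step change of the 36. It stood at 35.4, 44.9 and 29.5 CPM in Igfbp2-low non-cycling cells, at 117, 122 and 102 CPM in Igfbp2-high non-cycling cells and at 223, 258 and 211 CPM in Igfbp2-high cycling cells, again with no overlap. The log2 changes were 1.69 ± 0.08 (edgeR adjusted p = 4.39e-10) and 1.02 ± 0.07 (edgeR adjusted p = 6.81e-08), and the first exceeded the second by 0.67 ± 0.13 (edgeR adjusted p = 0.00115). With non-cycling cells limited to those without S phase UMIs in the thinned sample, that difference was -0.11 (edgeR adjusted p = 0.768).

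Its partners in the same particle were spread differently over the steps. Fbl (chr7:28169710-28179269), fibrillarin, the methyltransferase, rose by 1.03 ± 0.08 and then by 0.44 ± 0.08, from 68.4 ± 6.25 to 135 ± 11.2 to 184 ± 10.6 CPM. Rrp9, a protein of the U3 particle that directs early cuts, went from 16.3 ± 1.45 to 34.3 ± 0.83 CPM in the first step (1.12 ± 0.10) and reached 39.7 ± 2.74 CPM in cycling cells, a second step of 0.21 ± 0.09 that did not pass the test (edgeR adjusted p = 0.0871). Nop56 (chr2:130274430-130279313), the paralogous partner of Nop58, did the reverse: 32.0 ± 5.91, 50.8 ± 8.38 and 112 ± 9.02 CPM, or 0.72 ± 0.08 followed by 1.15 ± 0.08. Its steps differed by -0.43 ± 0.15 (edgeR adjusted p = 0.0341), a call that was lost without any 1 of the 3 runs, and the difference was 0.30 in thinned cells (edgeR adjusted p = 0.203). Nop56 hosts snoRNAs in its annotated span, as Ncl does, and a 3' count of polyadenylated RNA is mainly a count of the spliced host.

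**Figure D3:**
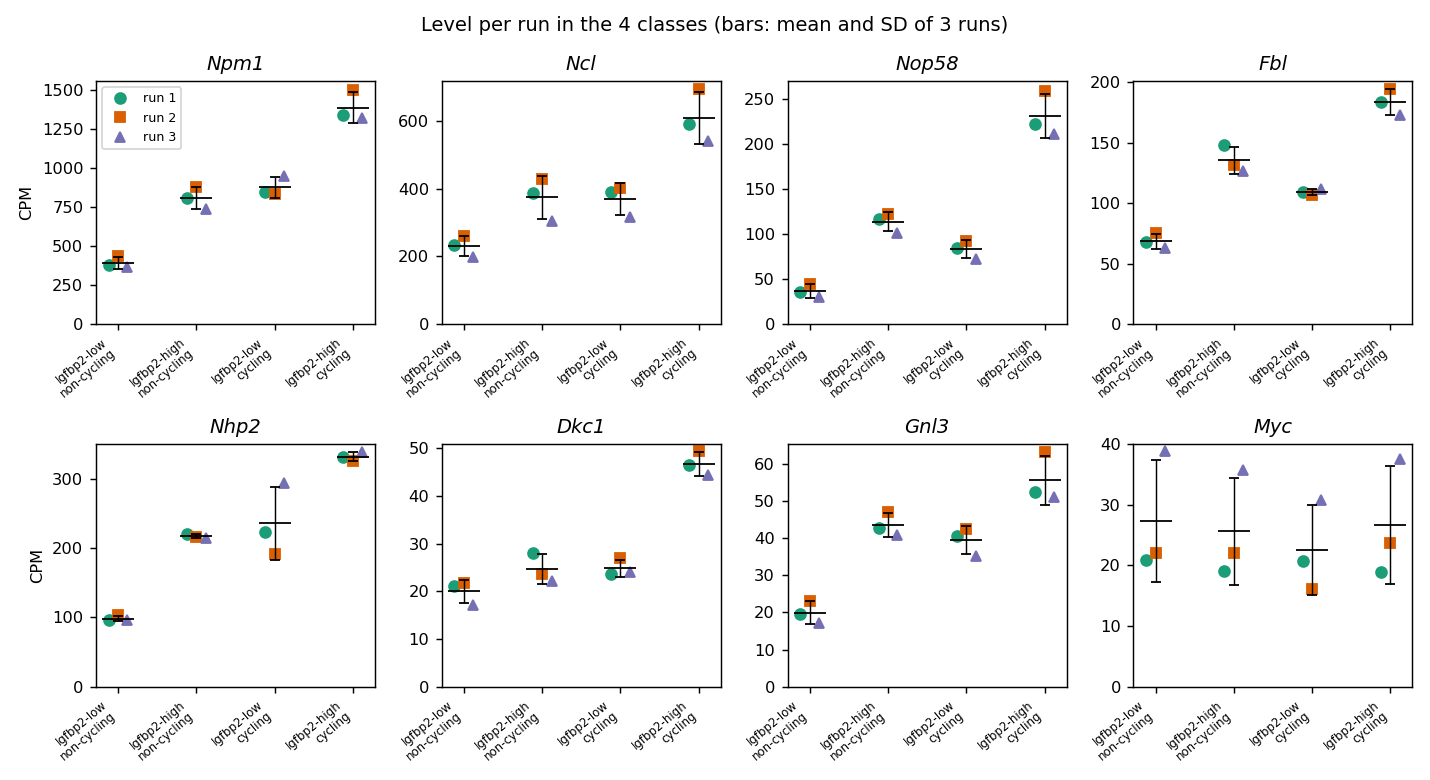
Level (CPM, y axes scaled per gene from 0) of 8 genes in the 4 classes; symbols are runs 1, 2 and 3 and bars the mean and SD of 3 runs. Npm1, Ncl, Nop58, Fbl, Nhp2, Gnl3 and, narrowly, Dkc1 (22.1 against 21.7 CPM at the closest) are higher in every run of the Igfbp2-high non-cycling class than in any run of the Igfbp2-low non-cycling class. These genes are highest in Igfbp2-high cycling cells, and the classes overlap for Myc, with run 3 highest in each class.

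The box H/ACA snoRNPs convert uridine to pseudouridine and also bind telomerase RNA. Nhp2 (chr11:51619735-51623714), an RNA-binding subunit, stood at 96.0, 103 and 96.0 CPM, then at 221, 216 and 214 CPM, then at 331, 325 and 338 CPM in Igfbp2-low non-cycling, Igfbp2-high non-cycling and Igfbp2-high cycling cells. The runs of a class lay close together and the classes far apart, with changes of 1.19 ± 0.10 and 0.61 ± 0.10. Nop10, the smallest subunit, rose by 0.76 ± 0.10 in the first step (233 ± 15 to 383 ± 12.1 CPM) and had 435 ± 3.54 CPM in cycling cells (0.19 ± 0.10, edgeR adjusted p = 0.13). Gar1 rose by 0.82 in each step. Dkc1 (chrX:75095854-75109777), dyskerin, the pseudouridine synthase itself, was at 21.1, 21.7 and 17.2 CPM in Igfbp2-low and 28.1, 23.6 and 22.1 CPM in Igfbp2-high non-cycling cells. It rose by only 0.35 ± 0.09 there and by 0.92 ± 0.08 in the second step, to 46.7 ± 2.5 CPM, a difference of steps of -0.56 ± 0.16 (edgeR adjusted p = 0.0122).

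The 3 RNA polymerase I subunits, summed, showed almost no first step: 64.2 ± 2.46 against 64.5 ± 1.98 CPM, then 81.3 ± 0.71 CPM in cycling cells. That sum follows Polr1c (chr17:46243920-46248054), a subunit shared with RNA polymerase III, whose level was 57.1 ± 2.24, 54.4 ± 2.28 and 69.0 ± 1.12 CPM (-0.02 ± 0.08, then 0.34 ± 0.08). Polr1a and Polr1b, the catalytic subunits particular to RNA polymerase I, were thinly counted and did rise in the first step. Polr1a (chr6:71909053-71984935) went from 4.82 ± 0.35 to 6.56 ± 0.66 CPM (0.48 ± 0.16, edgeR adjusted p = 0.0203) on 33 to 40 UMIs per run in the Igfbp2-high class. Polr1b (chr2:129100995-129126594) went from 2.24 ± 0.33 to 3.58 ± 0.39 CPM (0.73 ± 0.20, edgeR adjusted p = 0.00676) on 15 to 25 UMIs per run. Both calls were lost in at least 1 fit that left out a run, and neither gene passed the test in the second step.

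Of the 10 small subunit genes, 8 rose in the first step and 7 in the second. Rrp12, a late 40S export factor, was at 2.16, 2.31 and 1.63 CPM and then at 5.14, 5.56 and 6.06 CPM, a change of 1.49 ± 0.18 (edgeR adjusted p = 6.02e-06) on 29 to 34 UMIs per run in the upper class. Ddx21, an RNA helicase that couples RNA polymerase I to processing, went from 15.1 ± 1.23 to 34.0 ± 1.44 to 42.3 ± 1.69 CPM, or 1.21 ± 0.11 and then 0.31 ± 0.10. Utp20, Utp18 and Wdr43, parts of the early pre-ribosome, rose by 0.95, 0.86 and 0.75 in the first step, and Utp3, Utp14a and Wdr75 by 0.31, 0.27 and 0.27. Heatr1 (1.83 ± 0.41 against 1.60 ± 0.19 CPM) and the nuclease Nob1 (16.6 ± 2.48 against 18.4 ± 3.75 CPM), which cuts the 18S end, did not pass the test. Heatr1 was counted on 7 to 12 UMIs per run in the Igfbp2-high non-cycling class.

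All 10 large subunit genes rose in both steps, and the first step had the larger value for all but Wdr12. Gnl3 (chr14:31012433-31019152), nucleostemin, a nucleolar GTPase named for its level in stem cells, was at 19.7, 23.2 and 17.1 CPM, then at 42.6, 47.0 and 40.7 CPM, then at 52.4, 63.1 and 51.2 CPM. Neither step showed an overlap between classes. Gnl3 changed by 1.17 ± 0.07 (edgeR adjusted p = 8.34e-09) and then by 0.35 ± 0.07, and the first step exceeded the second by 0.82 ± 0.13 (edgeR adjusted p = 0.000168). That call was lost with non-cycling cells limited to those without S phase UMIs in the thinned sample. There only 1 member, Rrs1, passed the test with the larger first step, and the median difference over the members was -0.26. Rrs1, which brings the 5S particle in, rose by 0.91 ± 0.07 and 0.24 ± 0.07, and Ebna1bp2 by 0.72 ± 0.07 and 0.19 ± 0.07. The trimer of Pes1, Bop1 and Wdr12, needed for 60S maturation, rose by 0.57, 0.52 and 0.36 in the first step and by 0.33, 0.26 and 0.77 in the second. Nip7, Nop16, Gnl2 and Rrp15 rose by 0.34 to 0.85 in the first step.

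**Figure D4:**
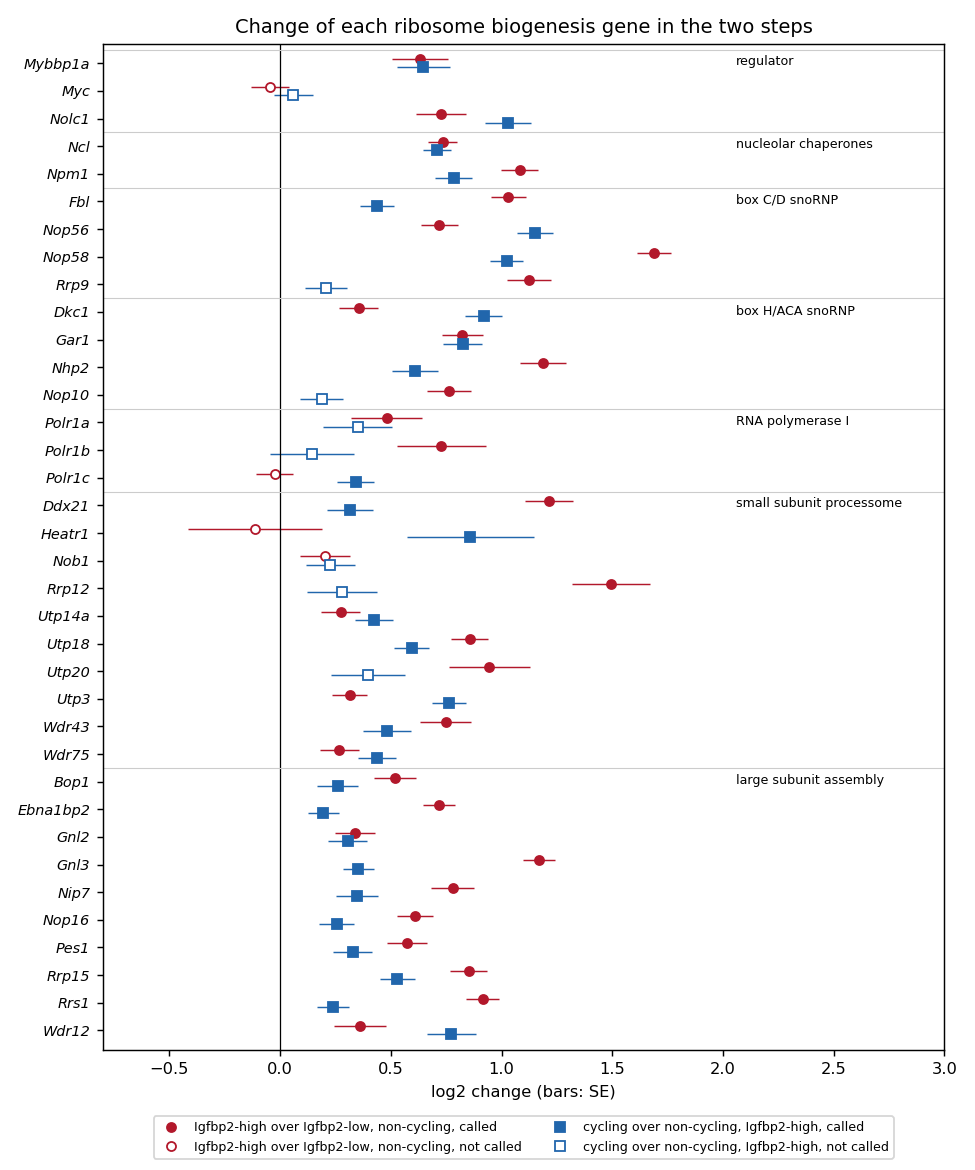
The log2 change of each of the 36 genes (rows, grouped by role) from Igfbp2-low to Igfbp2-high non-cycling cells (circles) and from non-cycling to cycling Igfbp2-high cells (squares), with bars for the SE; filled symbols passed the test at adjusted p under 0.05. Circles lie to the right of squares for most box C/D and large subunit genes, and the order is turned for Nop56, Dkc1, Utp3 and Wdr12 among others.

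In the second step, from non-cycling to cycling Igfbp2-high cells, 28 of the 36 rose and none fell, with a median of 0.41 (all genes -0.01), beside 24.8% of all genes that rose and 23.2% that fell. At least 1.5-fold rises numbered 13 of 36, beside 13.2% of all genes. The 8 that did not pass the test were Myc, Polr1a, Polr1b, Nop10, Rrp9, Rrp12, Utp20 and Nob1. Counts in this step depended on the cells used, and leaving out run 2 gave 19, beside 18.3% of all genes. Calls lost in at least 1 fit that left out a run were those of Rrs1, Ebna1bp2, Gnl2, Ddx21, Nip7, Pes1, Heatr1, Nop16 and Bop1. In cells thinned to 3500 UMIs before the classes were set, 12 of 35 rose and 1 fell, beside 16.6% and 21.3% of all genes. Without cells holding UMIs of Pax2, S100b, Rgs5 or the C1q genes 19 rose, beside 22.3% of all genes. Markers of other cells fell in this step: all 5 astrocyte markers did (median -4.21), from a summed 1293 ± 81.1 to 109 ± 22.6 CPM, and the 4 pericyte markers went from 354 ± 47.2 to 41.1 ± 3.3 CPM, with 2 of the 3 tested lower. The first step used the same Igfbp2-high non-cycling cells as its upper class.

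Tested against each other in 1 contrast, the first step was larger for 10 of the 36 genes and the second for 3, beside 18.9% and 19.3% of all genes. The 10 were Rrp12, Ddx21, Rrp9, Gnl3, Rrs1, Nop58, Fbl, Nhp2, Nop10 and Ebna1bp2, and the 3 were Dkc1, Nop56 and Utp3. Without run 2 no member had the larger second step by this test, beside 10.9% of all genes. Without run 3 only 1 member did, beside 14.4%. Without each run in turn, 7 of the 13 calls held. For the other 23 genes the difference did not pass the test, and among them were Npm1 (0.30 ± 0.14) and Ncl (0.02 ± 0.11). Of the 51 S phase genes 34 had the larger second step and 1 the larger first, and all 41 mitosis genes had the larger second step. The class rule partly sets these counts, because non-cycling cells had 0 and cycling cells at least 2 UMIs of 4 cycle genes. The non-cycling cells were also limited to those with 0 S phase UMIs in the thinned sample. There, 1 member had the larger first step and 4 the larger second, beside 11.2% and 9.20% of all genes. The median difference over the members then turned from 0.26 to -0.26, with medians of 0.47 and 0.75 for the 2 steps, and Nop58, Fbl, Ddx21 and Rrp12 turned in sign.

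Between non-cycling and cycling Igfbp2-low cells, 27 of the 36 rose and none fell, beside 16.8% of all genes that rose and 15.6% that fell, and the median change was 0.56. The summed level went from 1692 ± 126 to 2971 ± 125 CPM. This class had 88 to 105 cells per run, and it held the microglia markers given above, whose part in the result was not tested. Without the cells holding C1q, Pax2, S100b or Rgs5 UMIs, 19 of the 36 rose, beside 12.7% of all genes. In cells of 8000 to 16000 UMIs 3 of 35 rose (median 0.24), beside 4.50% of all genes, and with Igfbp2 limits of 10 and 0 per 10000 it was 14 of 36, beside 10.8%. Its lower class, Igfbp2-low non-cycling cells, is also that of the first step. Among cycling cells, 29 of the 36 were higher in Igfbp2-high than in Igfbp2-low cells and none was lower (median 0.59), beside 25.5% and 19.6% of all genes. Without run 2 this count was 19, beside 17.4% of all genes. In thinned cells it was 3 of 35 with 1 lower, beside 3.96% and 3.12% of all genes. The step into cycling itself differed between Igfbp2-high and Igfbp2-low cells for 4 of the 36 genes. It was larger in Igfbp2-high cells for Dkc1 and smaller for Ddx21, Gnl3 and Nhp2, beside 7.36% and 6.98% of all genes. Counting both directions, the 36 genes were called no more often here than all genes.

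The regulator Myc (chr15:61985391-61990374), a transcription factor known to raise ribosome biogenesis genes, did not move with them. Its level was 20.9, 22.1 and 38.9 CPM in Igfbp2-low non-cycling cells, 19.1, 22.0 and 35.7 CPM in Igfbp2-high non-cycling cells and 18.9, 23.7 and 37.5 CPM in Igfbp2-high cycling cells. Run 3 was the highest in every class, and the classes overlapped. The changes were -0.05 ± 0.09 (edgeR adjusted p = 0.675) and 0.06 ± 0.09 (edgeR adjusted p = 0.609). Myc was higher in Igfbp2-high than Igfbp2-low cycling cells by 0.34 ± 0.13 (edgeR adjusted p = 0.0486), in 2 of 3 runs, and that call did not hold without any of the runs. In UMIs per cell rather than CPM, Myc went from 0.259 ± 0.077 to 0.373 ± 0.106 UMIs in the first step. In the cells of the authors' processed table Myc fell by 0.25 in the first step (edgeR adjusted p = 0.03). In cells thinned to 3500 UMIs its second-step change was -0.47 (edgeR adjusted p = 0.0168).

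Of 11 other genes of the MYC network, 2 rose and 6 fell in the first step. Max, the partner that MYC needs to bind DNA, fell by 0.23, and Mxi1 and Mxd4, which compete for Max, fell by 1.29 and 0.46. Mycn, a paralogue of Myc, rose by 2.61 (edgeR adjusted p = 0.00053), the highest change of the 11 (median -0.23). It was named after its value was seen. The other regulators of the set rose: Nolc1, a nucleolar shuttle protein, by 0.73 ± 0.11 and then 1.03 ± 0.11, and Mybbp1a, a MYB-binding nucleolar protein, by 0.63 ± 0.13 and 0.65 ± 0.12.

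Because so many members moved together, their promoters were searched for the E-box CACGTG that MYC and MAX bind (its own reverse complement) and for the TEAD motif GGAATG or CATTCC on either strand. RefSeq windows from 250 bases before to 50 bases after the start (GRCm38.p6) were at hand for 29 of the 36 genes. The E-box was in 5 of 29 (17.2%), beside 8.09% of 27025 genes with a window, and the TEAD motif in 2 of 29 (6.90%, Polr1b and Rrp15), beside 16.6%. A match is a string of letters and was not tested for binding. The 5 E-boxes are shown in capitals with up to 12 bases on each side, on the strand of the gene, since they are the stretches that the comparison with Myc concerns.
Utp20 (chr10:88826765-88826789, minus): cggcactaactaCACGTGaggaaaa
Pes1 (chr11:3963965-3963994, plus): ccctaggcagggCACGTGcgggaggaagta
Mybbp1a (chr11:72441355-72441376, plus): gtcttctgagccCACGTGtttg
Utp18 (chr11:93885769-93885798, minus): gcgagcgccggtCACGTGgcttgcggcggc
Wdr43 (chr17:71616220-71616249, plus): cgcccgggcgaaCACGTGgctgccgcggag
The first-step changes of these 5 genes were 0.57 to 0.95, beside a median of 0.73 for the 36, which include them. Whether they differ from the other members was not tested.

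A wider list of 117 other ribosome biogenesis genes was counted in the same way. In the first step 63 rose and 3 fell with a median of 0.32, and their summed level went from 2975 ± 222 to 3498 ± 256 CPM, 1.18-fold ± 0.035. In the second step 81 rose and 1 fell, with a median of 0.47. The first step thus held 36.1% ± 7.9 of the whole log2 change for these genes, beside 57.4% ± 3.3 for the 36, and this difference was not tested. Eif6, which keeps the subunits apart, rose by 0.56 and the methyltransferase gene Emg1 by 0.31.

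Other growth genes moved in the same first step. Of 27 genes of nucleotide and polyamine synthesis, 18 rose and 3 fell. Odc1, the rate-limiting enzyme of polyamine synthesis and a known MYC target, went from 118 ± 11.5 to 713 ± 82.7 CPM (2.64 ± 0.09) and to 817 ± 51.4 CPM in cycling cells (0.21 ± 0.09, edgeR adjusted p = 0.0625). The D cyclins Ccnd1 and Ccnd2, which open G1, rose by 2.31 ± 0.14 and 3.35 ± 0.11, while Cdkn1a, Cdkn1b, Rb1 and Rbl2 of the same list fell, and of 39 translation factors 25 rose and 6 fell. Mcm5, a subunit of the replicative helicase, rose by 2.39 ± 0.19 and then by 2.60 ± 0.15, while Pcna, the sliding clamp, rose by 0.47 ± 0.14 and then by 2.37 ± 0.13. Immediate early genes went the other way: 15 of 20 fell and 2 rose, and Fos, Jun and Egr1 fell by 1.07, 0.93 and 0.90 on the log2 scale. Of 16 YAP target genes 13 rose.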

How the data were processed

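UMI counts per gene and cell were deposited by the authors as raw counts, for which the submitters' processing notes name Cell Ranger, without a version, and the build mm10. A table of natural log values (ln) was deposited by the authors for 13511 of the 24695 cells; the notes also name Seurat 2.3.4, without saying for which step. The table was used here only to know which cells it holds. A cell was dropped below 500 detected genes or above a 20% mitochondrial share, which took out 23 and left 24672. Doublets were not removed. Counts were summed per run and class into 12 profiles and fitted together with edgeR 4.0.16 (R 4.3.3; filterByExpr, TMM, quasi-likelihood F test, run as a block), and p-values were adjusted by Benjamini-Hochberg over 14303 genes. The SE is the log2 change divided by the root of F. The block is the library that the 4 classes of a run share. Igfbp2, Top2a, Mki67, Cdk1 and Ccnb1, which set the classes, were left out after scaling. Summed levels use CPM of all UMIs of the class. Cells were thinned with numpy 2.4.6 (seed 1). Alternatives included DESeq2 1.42.0. The fit was also run on simulated data in which far fewer genes changed than between the classes here. No result here rests on that run.

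The members and all lists were chosen with earlier results of these data known. Values are given for 12 members fixed by name, for those with the 4 highest and 4 lowest changes of each step, and for further members to account for the set. Other genes named are the up to 3 most abundant called in a list and 8 fixed by name (Ccnd1, Ccnd2, Mcm5, Pcna, Fos, Jun, Egr1, Odc1). Exceptions are Mycn, Pax2, S100b, Rgs5 and the C1q genes, chosen after their values were seen. Cdkn1a, Cdkn1b, Rb1 and Rbl2 are exceptions too, named as the genes of their list that fell. Gene positions are from GENCODE M21 (GRCm38). Exons of 14 members overlap a gene on the opposite strand, and whether counting used strand is not given in the sources used here.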

Additional observations from a re-analysis of the deposited data

Results flagged for a closer look

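For 4 of the 36 genes the step into cycling differed between Igfbp2-high and Igfbp2-low cells. The test was of the difference itself (edgeR quasi-likelihood test, adjusted p under 0.05). Of all 14303 genes tested, 1052 (7.36%) had the larger and 999 (6.98%) the smaller step in Igfbp2-high cells. Counting both directions, the 36 genes were called no more often than all genes, so these calls do not set the list apart. Dkc1 had the larger step in Igfbp2-high cells (difference 0.65 ± 0.15, SE; 0.92 against 0.27; edgeR adjusted p = 0.0125). Ddx21 (-0.76 ± 0.19; 0.31 against 1.07; edgeR adjusted p = 0.0168), Gnl3 (-0.58 ± 0.12; 0.35 against 0.93; edgeR adjusted p = 0.00704) and Nhp2 (-0.59 ± 0.15; 0.61 against 1.20; edgeR adjusted p = 0.0191) had the smaller. All 4 had the same sign in 3 of 3 runs. Each of the 4 calls was lost in at least 1 fit that left out a run. The Igfbp2-low cycling class that these differences rest on had 88 to 105 cells per run and microglia markers summed to 281 to 5242 CPM; the part of these in the differences was not tested.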

How the results depend on the processing

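The rise of the 36 genes from Igfbp2-low to Igfbp2-high non-cycling cells (32 higher) stayed within 1.5 times that count under the alternatives run, except with non-cycling cells that had no S phase UMIs (15 higher), and 1 gene, Myc, was lower in the cells of the authors' processed table. Leaving out a run gave 28 to 29 higher and 0 lower, while 23.1% to 26.3% of all genes were higher. The second step (28 higher) gave 18 without the replicate block, 12 higher and 1 lower in cells thinned to 3500 UMIs, 18 in cells with 8000 to 16000 UMIs, 18 in the authors' cells, and 19 to 23 when a run was left out. Of all genes, 16.6% to 21.2% were higher in these second-step fits. In Igfbp2-low cells the cycling step (27 higher) gave 17 in thinned cells, beside 13.6% of all genes. Cells with 8000 to 16000 UMIs gave 3, beside 4.50%. The authors' cells gave 16 higher and 1 lower, beside 13.8% and 14.7%. With Igfbp2 limits of 10 and 0 it was 14, beside 10.8%, and without a run 19 to 21, beside 13.1% to 13.4%. Among cycling cells the Igfbp2 difference (29 higher) gave 19 when only the classes compared were fitted, beside 18.6% of all genes. Thinned cells gave 3 higher and 1 lower, beside 3.96% and 3.12%. With cycling set at 4 UMIs it was 9, beside 15.2%, and without a run 19 to 24, beside 17.4% to 23.1%. The difference of the cycling step between Igfbp2 classes (1 higher, 3 lower) gave 0 higher in several alternatives. These were UMIs per cell, no replicate block, thinned cells, the authors' cells and cycling at 4 UMIs. Of all genes, 2.99%, 2.82%, 3.88%, 2.86% and 9.84% were higher there, in that order. With 8000 to 16000 UMIs 4 were higher, beside 3.90%. This difference gave 5 lower with DESeq2 and without cells holding Pax2, S100b, Rgs5 or C1q UMIs, beside 11.5% and 4.89% of all genes. Thinned cells gave 12 lower and cycling at 4 UMIs gave 11, beside 7.15% and 7.2%. Igfbp2 limits of 10 and 0 gave 1, beside 5.22%. Counts were 0 without the replicate block, with 8000 to 16000 UMIs and without S phase UMIs, beside 3.43%, 5.5% and 4.21%. Leaving out a run gave 0 to 1 higher and 0 to 3 lower, beside 1.49% to 4.74% and 2.39% to 5.1% of all genes. The difference of the 2 steps (10 higher, 3 lower) gave 18 and 0 in thinned cells, beside 15.7% and 9.55% of all genes. It gave 16 and 1 with Müller marker limits and without cells holding those other markers, beside 19.9% and 18.3% to 18.4%. Without S phase UMIs 1 was higher, beside 11.2%. DESeq2 size factors and 8000 to 16000 UMIs gave 1 lower, beside 15.4% and 12.3%. The DESeq2 test and no replicate block gave 0 lower, beside 14% and 12.2%. Without a run 8 to 9 were higher and 0 to 2 lower, beside 12.8% to 18.7% and 10.9% to 14.4%. The cause of these moves was not tested. With no S phase UMIs and in the depth window, fewer cells and fewer genes entered the fit.

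With UMIs per cell instead of scaled counts, the median of all genes moved to 0.52 in the first step and 0.58 in the second. Of the 36 genes, 35 and 36 rose, beside 56.1% and 60.8% of all genes. Relative to the signs above, this scale turned Myc (0.53), Polr1c (0.55), Max (0.34) and Mxd4 (0.11) upward in the first step. It also turned Myc (0.39) upward in the Igfbp2-low cycling step. Thinned cells turned Myc in the second step (-0.47, edgeR adjusted p = 0.0168). They also turned Nop16 (-0.023), Nip7 (-0.10) and Ebna1bp2 (-0.071) there, none of which passed the test. Gnl3 (-0.20) turned between Igfbp2 classes of cycling cells. The difference of cycling steps turned for Dkc1 (-0.0078) and the difference of the 2 steps for Nop56 (0.30). Non-cycling cells without S phase UMIs turned Wdr75 (-0.25) in the first step and the difference of the 2 steps for Nop58 (-0.11), Fbl (-0.10), Ddx21 (-0.12) and Rrp12 (-0.57). Cycling at 4 UMIs turned Ddx21 (-0.0061) between cycling classes, and cells with 8000 to 16000 UMIs turned the difference of cycling steps for Gnl3 (0.14). In thinned cells the summed level was 3110 and 3456 CPM in the upper Igfbp2 bins, where mitosis transcripts stood at 1082 and 1063 CPM. The summed level was 3313, 4370, 4512 and 4244 CPM with 0, 1, 2 to 4 and 5 or more cycle UMIs. Of the first-step calls, 27 held without each run in turn and 15 under all 18 alternatives; of the second-step calls, 19 and 11. Leaving out cells with Pax2, S100b, Rgs5 or C1q UMIs was an alternative chosen after seeing the data. Genes with few UMIs per run, such as Heatr1, Polr1b and Rrp12, are limited by depth.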
